A study of Mus musculus with 15 samples.

Results

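This account follows 46 genes of the cell division cycle through the growth of the mouse secondary palate. The genes were taken by name from the deposited count table of 54232 genes: 17 encode proteins of DNA replication and the entry into S phase, 3 (Cdc45, E2f1 and E2f8) act at the same G1/S step but lie outside the families listed for replication, and 26 act in G2 and mitosis. All 46 passed the filter on low counts, which kept 22151 genes. The libraries are bulk RNA-seq of palates dissected from wild-type mice: 4 stages were embryonic, called E13.5, E14.5, E15.5 and E16.5 by day of gestation, and 1 was the day of birth, called P0. No treatment, transgene or strain is named in the labels. Each of the 5 stages had 3 libraries, and each library pooled the palates of 3 embryos, so the spread given here is a spread between pools, and p-values measure no other spread.

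A dividing cell copies its DNA in S phase and separates the copies in mitosis. Replication genes are switched on by E2F transcription factors as a cell leaves G1: their products load the MCM helicase on origins, activate it, and supply the polymerases with a sliding clamp and with nucleotides. Mitotic genes are switched on later, in G2, by the MuvB complex with B-MYB and FOXM1, and their products condense chromosomes, build the spindle, attach kinetochores and complete division. In the palate the shelves grow by division of mesenchymal and epithelial cells, then elevate, meet and fuse, after which bone and muscle form in them.

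The 15 libraries held 21.5 to 69.02 M counts (M, 1e6), and their median was 61.03 M. The shallowest was replicate 3 of P0. A total of 3 counts, the detection floor used here, equalled 0.0435 to 0.140 CPM (counts per 1e6 counts, here scaled to totals adjusted by TMM, except for this floor). All members lay far above it in every library. The lowest member value was that of Ttk in P0 replicate 1, 5.96 CPM. The 8 palate mesenchyme markers (Osr2, Pax9, Msx1, Shox2, Tbx22, Meox2, Prrx1 and Twist1) were detected at every stage, with a summed level of 573 to 932 CPM at E13.5 and 238 to 346 CPM at P0.

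Transcripts of 43 of the 46 genes fell between E13.5 and P0 (edgeR's quasi-likelihood test, Benjamini-Hochberg adjusted p under 0.05). The same test called 26.8% of all tested genes lower. The 43 comprised 17 of 17 replication genes, 24 of 26 mitotic genes, and Cdc45 and E2f1 of the other 3. No member rose. The median log2 fold change was -1.25 over the replication genes and -1.23 over the mitotic genes, against 0.03 over all tested genes. The 3 members that did not pass were Cdk1 (adjusted p = 0.0628 by edgeR), Ndc80 (adjusted p = 0.089) and E2f8 (adjusted p = 0.089). In bulk tissue, fewer cycling cells and less of each transcript per cycling cell cannot be told apart. Every P0 library lay below every E13.5 library for 44 members, where 28.9% of tested genes separated in this way, and the members that overlapped were Cdk1 and Ndc80. The call held for 38 of the 43 members in every alternative tried, and the other 5 were E2f1, Ccnb2, Aurkb, Birc5 and Nusap1. Without P0 replicate 2 all 5 lost the call, and without P0 replicate 1 Ccnb2, Aurkb and Nusap1 did. Without P0 replicate 3, Cdk1 and Ndc80 passed.

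**Figure D1:**
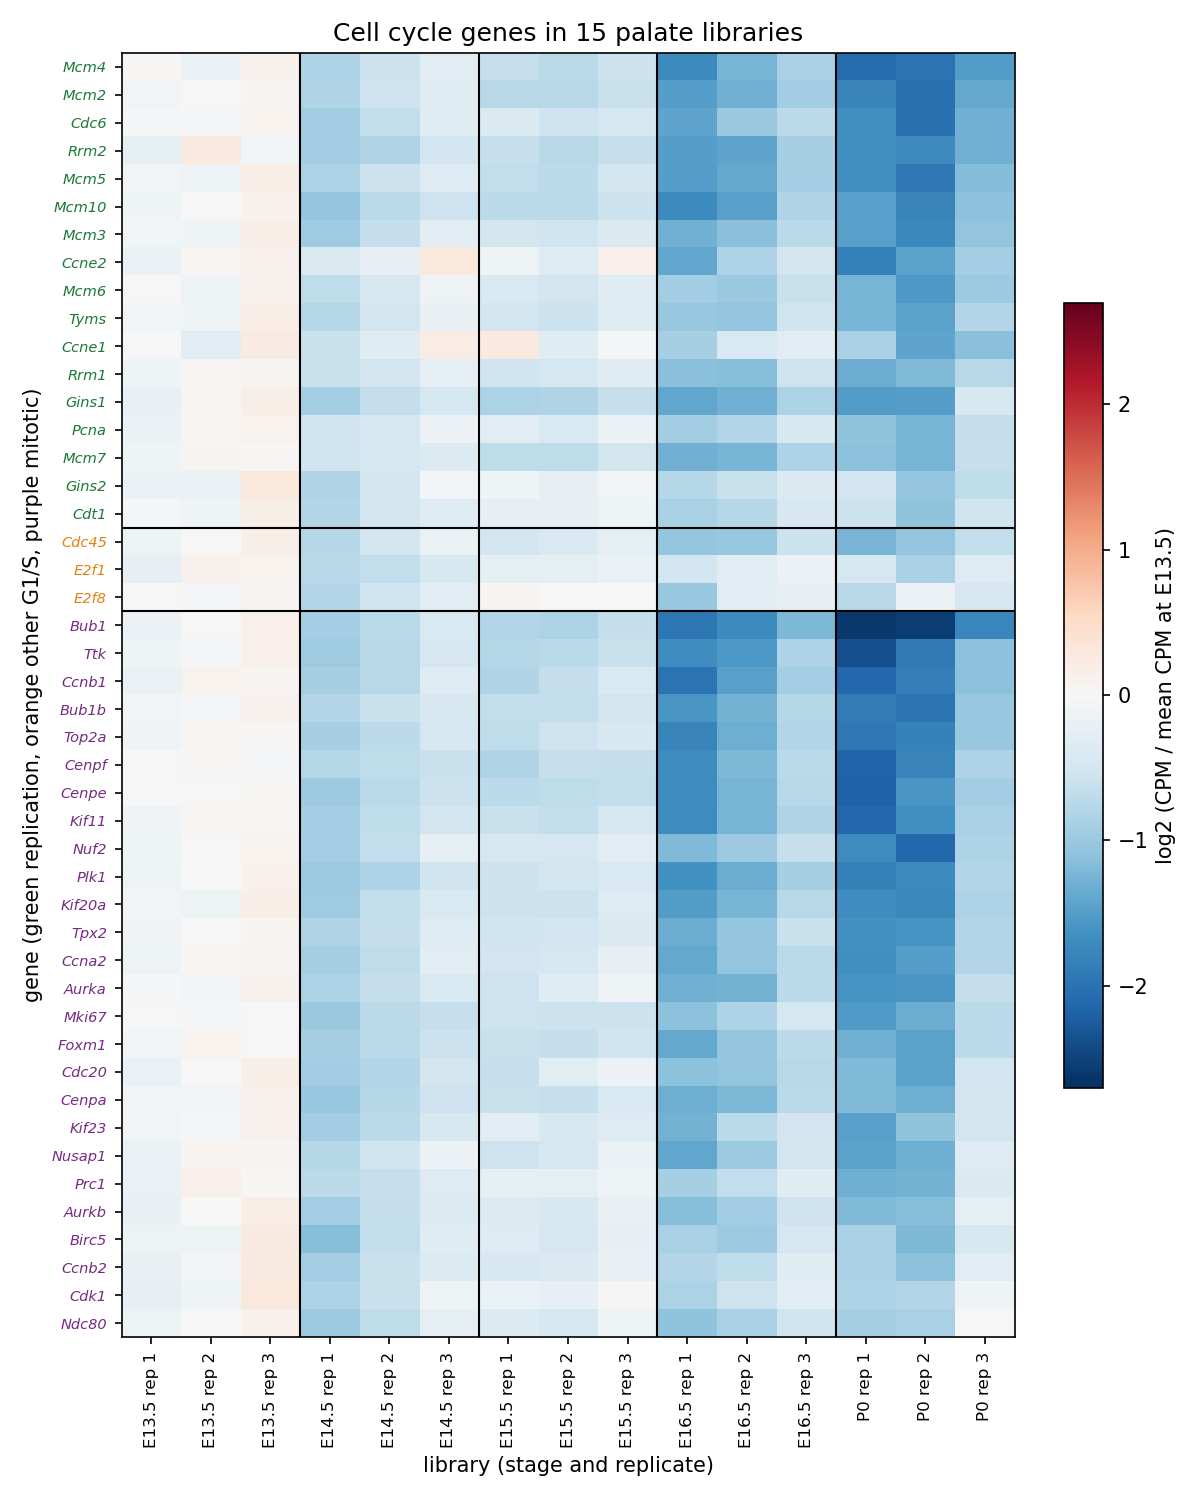
Level of each of the 46 genes (rows) in each of the 15 libraries (columns), as log2 of its CPM over its mean CPM at E13.5; blue is lower and red is higher. Rows are grouped as 17 replication, 3 other G1/S and 26 mitotic genes, and within a group ordered by the level at P0, with Mcm4 and Bub1 at the low ends; within E14.5 and within E16.5 replicate 3 is the highest for all 46 genes.

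The DNA around the start sites of the members was searched for the letters of 3 motifs known from cell cycle promoters. The E2F motif was searched as TTCCCGC or alternatively TTCGCGC, or further TTGCCGC, or lastly TTGGCGC. The CCAAT box, bound by NF-Y, was searched as those letters alone. The cell cycle genes homology region (CHR, bound by MuvB) was searched as TTTGAA or alternatively TTCGAA, and each motif on both strands. The letters TTGGCGC read on the other strand as GCGCCAA, which can share bases with a CCAAT box, and overlapping matches were all kept. RefSeq windows of 300 bases (250 before to 50 after the start, build GRCm38.p6) were found for 37 of the 46 genes, and 31 of those starts lay within 60 bases of the gene start in the count table. The 9 without a window were Aurkb, Ccna2, Ccne2, Foxm1, Gins1, Gins2, Kif20a, Mcm4 and Tpx2.

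The shares of genes with each motif were unequal between the 2 groups. E2F letters were present for 8 of 13 replication genes (61.5%: Cdc6, Cdt1, Mcm3, Mcm5, Mcm6, Mcm7, Rrm1 and Rrm2) and for 3 of 21 mitotic genes (14.3%: Ccnb1, Cdk1 and Mki67), against 10.9% of 27025 genes with a window. CHR letters were present for 16 of 21 mitotic genes (76.2%) and 2 of 13 replication genes (15.4%: Mcm2 and Mcm7), against 21.7% of all genes. The CCAAT box was common in both, at 9 of 13 replication genes (69.2%) and 17 of 21 mitotic genes (81.0%), against 41.1% of all. A CCAAT box together with CHR letters was found for 15 of 21 mitotic genes (71.4%), 2 of 13 replication genes and 8.61% of all genes. Aurka, Bub1, Cenpa, Cenpf, Kif23, Ndc80, Plk1 and Ttk held CHR letters only after the start, as Cdt1 and Mcm3 did E2F letters. All these counts are of letters in a window and not of measured binding, and no test was run on them.

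**Figure D2:**
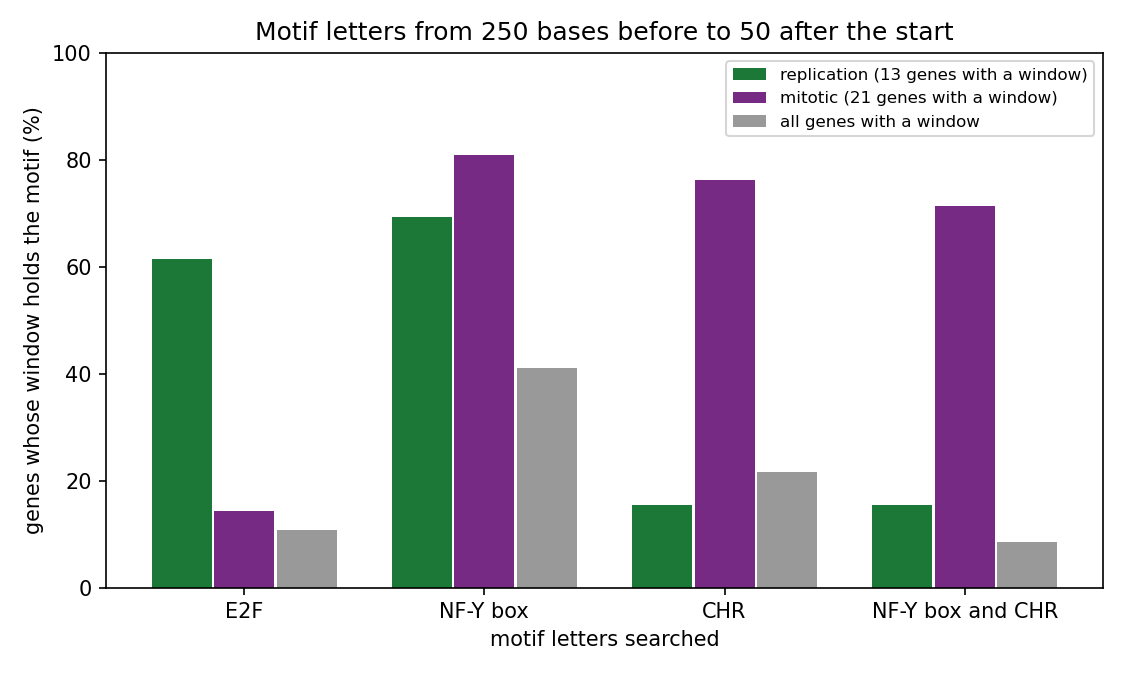
Share of genes (y axis, percent) whose window from 250 bases before to 50 bases after the RefSeq start holds the letters of each motif (x axis, with the CCAAT box named by its factor NF-Y), for 13 replication genes, 21 mitotic genes and all 27025 genes with a window. The E2F bar is tallest for the replication genes at 61.5%, and the CHR bar for the mitotic genes at 76.2%.

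The 150 bases before the start of 6 members are printed to show these arrangements, 5′ to 3′ on the strand of the gene, with every match in capitals. For each of the 6 the RefSeq start coincided with the gene start in the table or lay before it. Mcm6 has a pair of E2F blocks in which matches on both strands overlap, with CCAAT boxes in the reverse form ATTGG 57 and 14 bases before the start, and Rrm1 has 1 E2F match between 2 CCAAT boxes. Top2a, Kif11 and Mki67 carry CHR letters with CCAAT boxes, and in Top2a and Kif11 a CHR match lies 23 and 19 bases before the start. Mki67 also holds E2F letters, 67 bases before the start. Bub1b holds a CCAAT box in this stretch and its CHR letters outside it, 188 bases before and 40 bases after the start.
Mcm6, chr1:128359706-128359855, minus strand: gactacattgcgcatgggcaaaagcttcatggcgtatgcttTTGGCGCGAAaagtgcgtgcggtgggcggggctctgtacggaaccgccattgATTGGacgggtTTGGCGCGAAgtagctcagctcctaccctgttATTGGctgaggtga
Rrm1, chr7:102441545-102441694, plus strand: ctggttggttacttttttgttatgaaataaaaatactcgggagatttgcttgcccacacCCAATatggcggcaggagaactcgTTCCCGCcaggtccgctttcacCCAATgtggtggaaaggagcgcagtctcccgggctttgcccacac
Top2a, chr11:99024190-99024339, minus strand: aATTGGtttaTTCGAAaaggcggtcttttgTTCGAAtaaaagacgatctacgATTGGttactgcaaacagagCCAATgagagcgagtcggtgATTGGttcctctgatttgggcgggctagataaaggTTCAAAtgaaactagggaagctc
Kif11, chr19:37376232-37376381, plus strand: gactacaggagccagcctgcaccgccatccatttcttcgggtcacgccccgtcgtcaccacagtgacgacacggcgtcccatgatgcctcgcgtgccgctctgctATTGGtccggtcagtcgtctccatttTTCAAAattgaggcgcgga
Mki67, chr7:135716380-135716529, minus strand: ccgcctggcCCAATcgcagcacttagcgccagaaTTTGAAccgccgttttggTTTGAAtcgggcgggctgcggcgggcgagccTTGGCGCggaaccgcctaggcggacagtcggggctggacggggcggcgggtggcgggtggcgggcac
Bub1b, chr2:118598061-118598210, plus strand: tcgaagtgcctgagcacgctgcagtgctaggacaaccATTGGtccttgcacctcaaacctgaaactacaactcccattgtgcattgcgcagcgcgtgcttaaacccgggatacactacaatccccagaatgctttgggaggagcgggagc

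The levels did not decline evenly over the stages. Relative to E13.5, the median replication gene stood at 69.1% (E14.5), 72.2% (E15.5), 49.3% (E16.5) and 42.1% (P0). The median mitotic gene stood at 62.9%, 71.5%, 49.1% and 42.6% at the same stages. The medians were thus lower at E14.5, somewhat higher again at E15.5, lower at E16.5 and lowest at P0. The mean was highest at E13.5 for 45 members and at E15.5 for E2f8. It was lowest at P0 for 38 members, at E16.5 for 6 and at E14.5 for 2.

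In the main edgeR fit, of all 15 libraries with terms for stage only, no single step between neighbouring stages passed the adjusted threshold for any member. Between E13.5 and E14.5, 0 of 46 members passed by edgeR's quasi-likelihood test (0.0% of tested genes passed as lower), 39 were lower at an unadjusted p under 0.05 (5.72% of tested genes were), and DESeq2 called 8 (1.48% of tested genes as lower). All 3 E14.5 libraries lay below all 3 E13.5 libraries for 39 members, where 13.7% of tested genes did so. The median log2 difference of this step was -0.61, from -0.78 for Plk1 to -0.08 for Ccne2.

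Between E14.5 and E15.5, 13.4% of tested genes fell and 12.7% rose by edgeR. Of the 46 members 0 passed in either direction by edgeR, 2 (E2f1 and E2f8) were higher at an unadjusted p under 0.05 (19.7% of tested genes), and the median log2 difference was 0.12. DESeq2 called the same 2 higher (16.5% of tested genes). No member had all E15.5 libraries below all E14.5 libraries (27.2% of tested genes), and 5 had them all above (24.0% of tested genes): Mki67, Prc1, Cdt1, E2f1 and E2f8. Between E15.5 and E16.5, 0 members passed by edgeR (0.379% of tested genes passed as lower), 28 were lower at an unadjusted p under 0.05 (9.64% of tested genes), and DESeq2 called 1, Bub1 (3.22% of tested genes as lower). By edgeR the count was 3 without E16.5 replicate 3, where 127 of 23047 tested genes were called lower. The E16.5 libraries all lay below the E15.5 libraries for 37 members, where 15.5% of tested genes did so, and the median log2 difference was -0.51. Between E16.5 and P0, 0 members passed by edgeR (0.163% of tested genes passed as lower) or by DESeq2 (1.5% of tested genes), 6 were lower at an unadjusted p under 0.05 (6.1% of tested genes), and for 0 members did the libraries separate downwards (5.39% of tested genes). The median log2 difference of that last step was -0.24.

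Across all 5 stages the F test of edgeR called 42 of 46 members changed, where it called 59.1% of tested genes. The exceptions were Cdk1, Ndc80, Ccnb2 and E2f8.

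**Figure D3:**
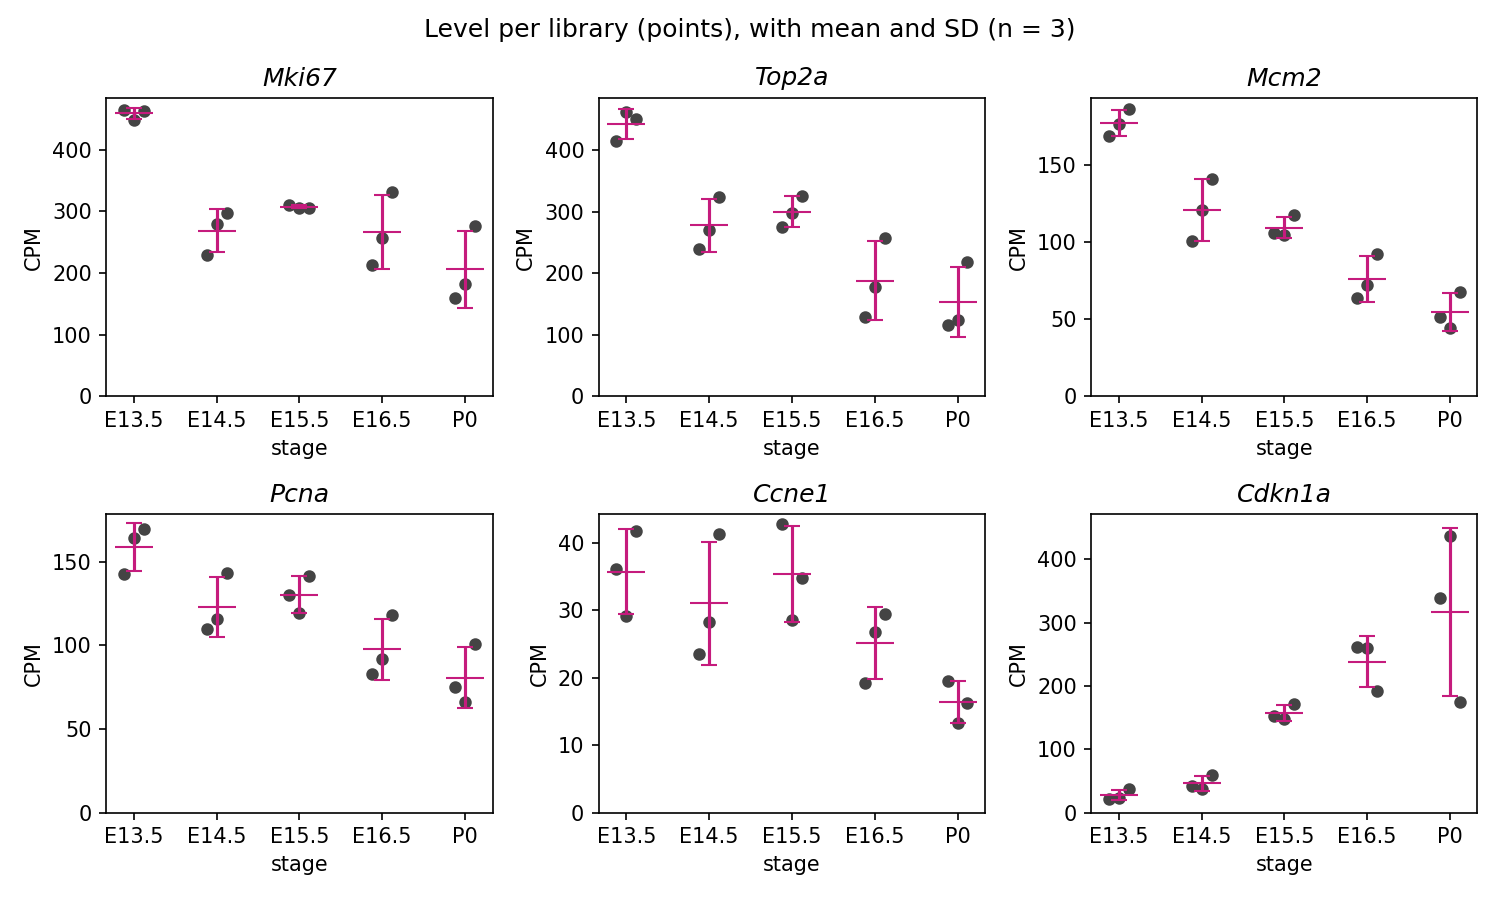
CPM (y axis, from 0) per library at each stage (x axis) for Mki67, Top2a, Mcm2, Pcna, Ccne1 and Cdkn1a, with each library as a point and the mean and SD of 3 libraries as a bar. The first 5 genes are lowest at P0, Ccne1 stays near its E13.5 level to E15.5, and Cdkn1a rises from 22.2 to 36.6 CPM at E13.5 to 175 to 437 CPM at P0.

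The helicase genes had some of the largest falls. Mcm2 to Mcm7 encode the 6 subunits of the ring that unwinds DNA at the fork. Mcm4 (ENSMUSG00000022673.5, chr16:15623897-15637400 on GRCm38), the replication gene with the largest fall, was at 154, 133 and 164 CPM (E13.5), 84.04, 99.9 and 121 (E14.5), 97.5, 90.98 and 101 (E15.5), 45.5, 63.2 and 81.9 (E16.5) and 35.6, 37.8 and 52.8 (P0), where values are given for replicates 1, 2 and 3 in turn here and below. The P0 libraries lay below all others except that P0 replicate 3 exceeded E16.5 replicate 1, and P0 against E13.5 gave a log2 fold change of -1.84 (SE 0.22, edgeR adjusted p = 2.95e-05). Mcm2 was at 169, 176 and 186 CPM (E13.5), 101, 120.4 and 141 (E14.5), 106, 105 and 117 (E15.5), 63.4, 72.2 and 92.2 (E16.5) and 51.6, 44.1 and 67.9 (P0). Its libraries separated downwards between E13.5 and E14.5 and between E15.5 and E16.5, and from E13.5 to P0 it fell by 1.70 on the log2 scale (SE 0.18, edgeR adjusted p = 1.56e-05). Mcm5 was at 162, 155 and 193 CPM (E13.5), 95.3, 113 and 133 (E14.5), 106, 104 and 121 (E15.5), 60.9, 65.2 and 90.1 (E16.5) and 54.1, 44.6 and 75.5 (P0). It kept the same order of stages, with E14.5 and E15.5 overlapping, and P0 against E13.5 gave a log2 fold change of -1.55 (SE 0.21, edgeR adjusted p = 6.78e-05).

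The subunits did not keep one proportion to each other. Mcm3 and Mcm6 fell to 37.9% and 42.1% of their E13.5 level at P0, Mcm4 to 28.03%, and Mcm7 to 51.2%. Per kilobase of gene model, the highest and the lowest of the 6 subunits at E13.5 were Mcm6 at 46.1 ± 4.01 CPM per kb (SD, n = 3) and Mcm2 at 25.4 ± 1.24, a ratio of 1.81. At P0 the highest was Mcm7 at 21.7 ± 5.25 and the lowest Mcm2 at 7.84 ± 1.75, a ratio of 2.77. Exons of Mcm7 overlap those of the microRNA genes Mir25 and Mir93 on the same strand, and fragments in such an overlap were not counted.

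The loading and activating factors varied in how far they fell. CDC6 and CDT1 bring the helicase to origins. Cdc6 was at 25.8, 25.7 and 28.5 CPM (E13.5), 13.9, 16.8 and 21.3 (E14.5), 20.3, 18.1 and 19.3 (E15.5), 9.91, 13.4 and 16.2 (E16.5) and 8.49, 6.56 and 10.8 (P0). It stood at 32.3% of its E13.5 level at P0, with a log2 fold change of -1.63 (SE 0.22, edgeR adjusted p = 8.31e-05). Cdt1 was at 41.7, 40.01 and 47.9 CPM (E13.5), 24.9, 30.7 and 33.99 (E14.5), 37.1, 36.8 and 39.9 (E15.5), 23.5, 25.4 and 31.9 (E16.5) and 28.9, 20.5 and 29.6 (P0). Its E15.5 libraries all lay above its E14.5 libraries, and its fall to P0 was the smallest of the 17 replication genes, a log2 fold change of -0.72 (SE 0.17, edgeR adjusted p = 0.00342).

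MCM10, CDC45 and the GINS complex turn the loaded ring into an active helicase. Mcm10 fell to 37.3% of its E13.5 level at P0, with a log2 fold change of -1.42 (SE 0.24, edgeR adjusted p = 0.000301). Gins2 was at 28.7, 28.2 and 39.3 CPM (E13.5), 18.3, 22.6 and 30.3 (E14.5), 29.4, 27.3 and 30.3 (E15.5), 18.8, 21.3 and 24.5 (E16.5) and 22.4, 15.5 and 19.9 (P0). Its E13.5 and E15.5 libraries overlapped, all P0 libraries lay below both, and P0 against E13.5 gave a log2 fold change of -0.73 (SE 0.20, edgeR adjusted p = 0.00864). Gins1 differed by -0.76 on the log2 scale from E13.5 to E15.5 (edgeR adjusted p = 0.0587) and -0.29 from E15.5 to P0 (edgeR adjusted p = 0.46), with the fall over the whole course passing at an edgeR adjusted p of 0.00548. Cdc45 was at 27.7, 30.2 and 33.97 CPM (E13.5), 18.1, 21.4 and 27.02 (E14.5), 21.8, 23.2 and 25.6 (E15.5), 14.8, 15.05 and 20.4 (E16.5) and 12.9, 14.7 and 19.2 (P0). Its P0 libraries all lay below its E15.5 libraries, and P0 against E13.5 gave a log2 fold change of -0.97 (SE 0.20, edgeR adjusted p = 0.00114).

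The clamp and the nucleotide-supplying enzymes fell as well. PCNA is the sliding clamp that holds polymerases on DNA, and per kilobase its gene had the highest level of the 46 at E13.5, 66.1 ± 5.95 CPM per kb. Pcna was at 142, 164 and 169 CPM (E13.5), 109.8, 116 and 143 (E14.5), 130.1, 119 and 142 (E15.5), 82.7, 91.8 and 118 (E16.5) and 75.2, 66.2 and 101 (P0). The E13.5 and E14.5 libraries overlapped, the P0 libraries lay below those of E15.5, and P0 against E13.5 gave a log2 fold change of -0.97 (SE 0.18, edgeR adjusted p = 0.00057). RRM1 and RRM2 form ribonucleotide reductase, which makes deoxynucleotides. Rrm2 was at 102, 146 and 116 CPM (E13.5), 63.04, 69.3 and 84.3 (E14.5), 78.2, 71.7 and 79.03 (E15.5), 43.3, 45.4 and 64.7 (E16.5) and 38.3, 36.8 and 49.03 (P0). Replicate 2 stood above the others at E13.5, all libraries of every later stage lay below E13.5, and P0 against E13.5 gave a log2 fold change of -1.55 (SE 0.19, edgeR adjusted p = 3.71e-05). Rrm1 stood at 47.6% and Tyms, which encodes thymidylate synthase, at 45.5% of the E13.5 level at P0, and both passed at edgeR adjusted p values of 0.000388 and 0.000493. Named pseudogenes exist for Pcna, Tyms, Ccnb1 and Ccnb2, and fragments that mapped to several places were not counted, so their levels are less certain.

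The cyclin E genes differed little between E13.5 and E15.5. Cyclin E activates CDK2 at the start of S phase. Ccne1 was at 36.1, 29.2 and 41.8 CPM (E13.5), 23.6, 28.3 and 41.2 (E14.5), 42.8, 28.6 and 34.7 (E15.5), 19.2, 26.8 and 29.5 (E16.5) and 19.5, 13.4 and 16.3 (P0). The libraries of the first 3 stages overlapped, and those of P0 lay below all of them. Ccne2 was at 19.1, 22.3 and 23.2 CPM (E13.5), 16.5, 18.4 and 26.4 (E14.5), 19.5, 16.99 and 23.7 (E15.5), 8.14, 12.03 and 15.4 (E16.5) and 6.07, 7.96 and 11.4 (P0). Its libraries of the first 3 stages overlapped as well, and all its E16.5 and P0 libraries lay below them. From E13.5 to E15.5 the log2 differences were -0.01 (SE 0.24) for Ccne1 and -0.10 (SE 0.27) for Ccne2, with edgeR adjusted p values of 0.974 and 0.818. From E15.5 to P0 they were -1.11 (SE 0.25) and -1.25 (SE 0.28), with edgeR adjusted p values of 0.00966 and 0.00978. Whether their timing differed from that of other members was not tested.

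Of the E2F factors, E2F1 activates G1/S genes and E2F8 represses them later in S phase. E2f1 was at 34.3, 43.5 and 42.5 CPM (E13.5), 23.9, 25.4 and 29.5 (E14.5), 34, 33.5 and 35.2 (E15.5), 28.04, 32.9 and 36.2 (E16.5) and 28.7, 21.7 and 31.5 (P0). Its E14.5 libraries lay below those of E13.5 and E15.5, its E15.5 and E16.5 levels overlapped, and P0 against E13.5 gave a log2 fold change of -0.55 (SE 0.16, edgeR adjusted p = 0.00933). E2f8 was at 28.5, 27.4 and 29.9 CPM (E13.5), 16.5, 19.6 and 22.98 (E14.5), 29.97, 28.4 and 28.6 (E15.5), 14.03, 23.6 and 24.6 (E16.5) and 16.9, 25.4 and 20.9 (P0). Its E13.5 and E15.5 libraries overlapped and those of E14.5 lay below both. E2f8 did not pass between E13.5 and P0, at -0.44 on the log2 scale (SE 0.21), although all 3 P0 libraries lay below all 3 E13.5 libraries.

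Among the mitotic genes, the proliferation markers Mki67 and Top2a were among the most abundant per kilobase. Mki67 (ENSMUSG00000031004.8, chr7:135689784-135716361), the gene of the Ki-67 protein that coats mitotic chromosomes, was at 464, 448 and 463 CPM (E13.5), 229, 279 and 297 (E14.5), 310.1, 306 and 305 (E15.5), 213, 256 and 332 (E16.5) and 159, 182 and 276 (P0). Every E13.5 library lay above every later one, E15.5 and E16.5 overlapped, and P0 against E13.5 gave a log2 fold change of -1.16 (SE 0.20, edgeR adjusted p = 0.000437). Top2a (ENSMUSG00000020914.17, chr11:98992943-99024189), the gene of the topoisomerase that untangles sister chromatids, was at 415, 462 and 450.2 CPM (E13.5), 239, 271 and 323 (E14.5), 276, 298 and 326 (E15.5), 129, 179 and 257 (E16.5) and 116, 124 and 218 (P0). Its E16.5 libraries lay below its E15.5 libraries, and P0 against E13.5 gave a log2 fold change of -1.53 (SE 0.26, edgeR adjusted p = 0.000402). Per kilobase at E13.5, Cdc20, Top2a and Mki67 were the highest of the mitotic genes, at 53.7 ± 6.26, 49.1 ± 2.71 and 45.6 ± 0.885 CPM per kb, where Cdc20 and Top2a differed by less than the SD of Cdc20. Exons of Top2a overlap those of Gm23451 on the same strand, where fragments were not counted.

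CDK1 with cyclin A2 or a B-type cyclin drives entry into mitosis. The kinase and its cyclins had unequal falls. Cdk1 was at 99.9, 108 and 142 CPM (E13.5), 65.8, 76.2 and 106 (E14.5), 103, 99.98 and 119.6 (E15.5), 64.1, 79.4 and 94.2 (E16.5) and 65.8, 66.99 and 108 (P0). P0 replicate 3 exceeded E13.5 replicate 1, so the groups overlapped, and the log2 difference of -0.54 (SE 0.23) did not pass. Ccna2 was at 127, 145 and 146 CPM (E13.5), 75.2, 86.5 and 114 (E14.5), 96.9, 100.4 and 119 (E15.5), 53.5, 66.2 and 84.2 (E16.5) and 44.5, 49.4 and 80.2 (P0). Its P0 libraries lay below those of E15.5, and P0 against E13.5 gave a log2 fold change of -1.27 (SE 0.23, edgeR adjusted p = 0.000627). Ccnb1 was at 91.8, 111 and 109.9 CPM (E13.5), 55.8, 62.1 and 81.2 (E14.5), 58.9, 67.1 and 78.5 (E15.5), 26.4, 37.5 and 54.98 (E16.5) and 24.02, 28.8 and 48.1 (P0). Here too the P0 libraries lay below those of E15.5, and Ccnb1 stood at 32.3% of its E13.5 level at P0, with a log2 fold change of -1.63 (SE 0.29, edgeR adjusted p = 0.000475). Ccnb2 stood at 60.7%, with a log2 fold change of -0.72 (SE 0.21, edgeR adjusted p = 0.0123).

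Bub1, a gene of the spindle checkpoint, had the largest fall of all members. BUB1, BUBR1 (from Bub1b) and TTK hold anaphase back until every kinetochore is attached, and CDC20 is the activator of the anaphase-promoting complex that they restrain. Bub1 (ENSMUSG00000027379.13, chr2:127801122-127831865) was at 55.6, 61.9 and 68.4 CPM (E13.5), 32.8, 37.6 and 46.5 (E14.5), 35.6, 35.05 and 39.7 (E15.5), 15.97, 18.8 and 26.9 (E16.5) and 10.2, 10.4 and 18.2 (P0). Each step down separated the libraries except E14.5 to E15.5 and E16.5 to P0, and Bub1 stood at 20.9% of its E13.5 level at P0, with a log2 fold change of -2.26 (SE 0.25, edgeR adjusted p = 2.03e-05). Ttk was at 28.6, 30.3 and 33.9 CPM (E13.5), 15.9, 18.5 and 22.5 (E14.5), 18.1, 18.6 and 20.5 (E15.5), 9.71, 10.5 and 17.4 (E16.5) and 5.96, 8.26 and 14.3 (P0). P0 replicate 3 lay among the E16.5 libraries while replicates 1 and 2 lay below them, and P0 against E13.5 gave a log2 fold change of -1.70 (SE 0.30, edgeR adjusted p = 0.000454). Bub1b stood at 33.8% and Cdc20 at 50.1% of the E13.5 level at P0, and both passed at edgeR adjusted p values of 0.000214 and 0.00226.

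The mitotic kinases and the genes of the chromosomal passenger complex fell too. PLK1 and AURKA act at spindle poles, AURKA with its activator TPX2, and AURKB works with survivin (from Birc5) at centromeres and the midzone. Plk1 was at 70.6, 78.2 and 83.8 CPM (E13.5), 39.04, 43.7 and 53.1 (E14.5), 51.7, 55.2 and 58.6 (E15.5), 25.01, 30.7 and 41.9 (E16.5) and 21.97, 23.6 and 44.9 (P0). P0 replicate 3 stood within the E14.5 range and replicates 1 and 2 below all E16.5 libraries, and P0 against E13.5 gave a log2 fold change of -1.36 (SE 0.26, edgeR adjusted p = 0.000742). Aurkb was at 55.7, 63.3 and 72.1 CPM (E13.5), 33.6, 40.7 and 49.6 (E14.5), 49.3, 47.3 and 55.7 (E15.5), 28.6, 33.2 and 42.9 (E16.5) and 27.7, 28.6 and 53.2 (P0). Its P0 replicate 3 lay among the E15.5 libraries, but all P0 libraries lay below E13.5, with a log2 fold change of -0.80 (SE 0.25, edgeR adjusted p = 0.0141). Birc5 was at 62.6, 62.2 and 81.3 CPM (E13.5), 30.9, 43.2 and 54.9 (E14.5), 53.7, 49.8 and 58.97 (E15.5), 37.3, 34.9 and 50.1 (E16.5) and 37.5, 29.8 and 50.98 (P0). Its E15.5, E16.5 and P0 libraries overlapped, and P0 against E13.5 gave a log2 fold change of -0.80 (SE 0.23, edgeR adjusted p = 0.0112). The call for Aurkb was lost without P0 replicate 1 or without P0 replicate 2, and that for Birc5 without P0 replicate 2. Aurka stood at 43.5% and Tpx2 at 40.9% of the E13.5 level at P0, and both passed at edgeR adjusted p values of 0.00138 and 0.000528.

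The motors, midzone and kinetochore genes spread widely. KIF11 pushes the spindle poles apart, KIF20A, KIF23 and PRC1 organise the midzone, and NUSAP1 bundles spindle microtubules. At P0 these genes stood at 36.6% (Kif11), 39.1% (Kif20a), 51.6% (Kif23), 52.6% (Prc1) and 51.8% (Nusap1) of their E13.5 level, and all 5 passed. CENPA is the histone H3 variant of centromeres, CENPE a kinetochore motor and CENPF a kinetochore protein, and their genes stood at 51.3%, 35.9% and 35.7%, all passing. NDC80 and NUF2 are partners in the complex that grips microtubules, yet their genes differed: Nuf2 stood at 36.6% with a log2 fold change of -1.45 (SE 0.28, edgeR adjusted p = 0.000868), and Ndc80 at 69.2% without passing. The difference between these partners was not tested. Ndc80 was at 27.3, 30.4 and 32.7 CPM (E13.5), 15.4, 18.8 and 25.3 (E14.5), 23.3, 21.6 and 27.5 (E15.5), 14.3, 16.4 and 20.9 (E16.5) and 16.2, 16.5 and 29.9 (P0). Its P0 replicate 3 lay within the range of the E13.5 libraries, while replicates 1 and 2 lay below the E15.5 libraries.

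FOXM1 is the transcription factor that switches on G2 and mitotic genes. Foxm1 was at 88.8, 100.5 and 92.8 CPM (E13.5), 50.4, 56.6 and 63.3 (E14.5), 61.6, 60.1 and 64.5 (E15.5), 36, 45.6 and 57.6 (E16.5) and 38.6, 34.6 and 57.7 (P0). E13.5 lay above all later libraries and P0 overlapped with E16.5, with a log2 fold change of -1.11 (SE 0.20, edgeR adjusted p = 0.000474) for P0 against E13.5. Its exons overlap those of Gm44596 and Tex52 on the same strand, where fragments were not counted.

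The time course was divided at E15.5 to compare the change of each gene before and after that stage. Between E13.5 and E15.5, 7 members passed as lower by edgeR, where 9.18% of tested genes did: the replication genes Mcm2, Mcm4, Mcm5, Mcm7 and Rrm2 and the mitotic genes Bub1 and Foxm1. That count depended on each library. It was 0 without E15.5 replicate 2, 1 without E13.5 replicate 2, 2 without E15.5 replicate 1 or 3, and 3 without E13.5 replicate 1 or 3. It was 29 when only the 6 libraries of these stages were fitted, and no gene of the 7 was called in every alternative. The number of all tested genes called lower moved in these fits too, from 2033 in the main fit. Without E13.5 replicates 1, 2 and 3 in turn it was 976, 810 and 1865. Without those of E15.5 it was 1325, 769 and 942, and with only the 6 libraries it was 2848. The E15.5 libraries lay below the E13.5 libraries for 36 members, where 25.4% of tested genes did so.

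Between E15.5 and P0, 28 members passed as lower, where 10.8% of tested genes did: 14 of 17 replication genes, Cdc45, and 13 of 26 mitotic genes. The replication genes that did not pass were Mcm7, Gins1 and Gins2. The count was 10 without E15.5 replicate 3, without P0 replicate 1 or without P0 replicate 2, 14 without E15.5 replicate 2, 18 without E15.5 replicate 1, and 10 when only these 6 libraries were fitted. It was 41 without P0 replicate 3. All tested genes called lower numbered 2386 in the main fit, and 1617, 1276 and 1342 without E15.5 replicates 1, 2 and 3 in turn. Without those of P0 they numbered 1649, 2018 and 2917, and with only the 6 libraries 741. The 10 genes called in every alternative were Mcm2, Mcm3, Mcm4, Mcm5, Mcm6, Rrm2, Cdc6, Ccne1, Ccne2 and Bub1. The libraries separated downwards for 36 members, where 19.2% of tested genes did so. The later interval held the larger fitted fall for 41 of 46 members, 15 of 17 replication and 23 of 26 mitotic genes. No share over all tested genes is given for this count. Over the members the median log2 difference was -0.61 from E13.5 to E14.5 and -0.47 from E13.5 to E15.5. The later interval is also the longer, and for some members, such as Mki67 at -0.58 in both, the falls were equal to 2 decimals.

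**Figure D4:**
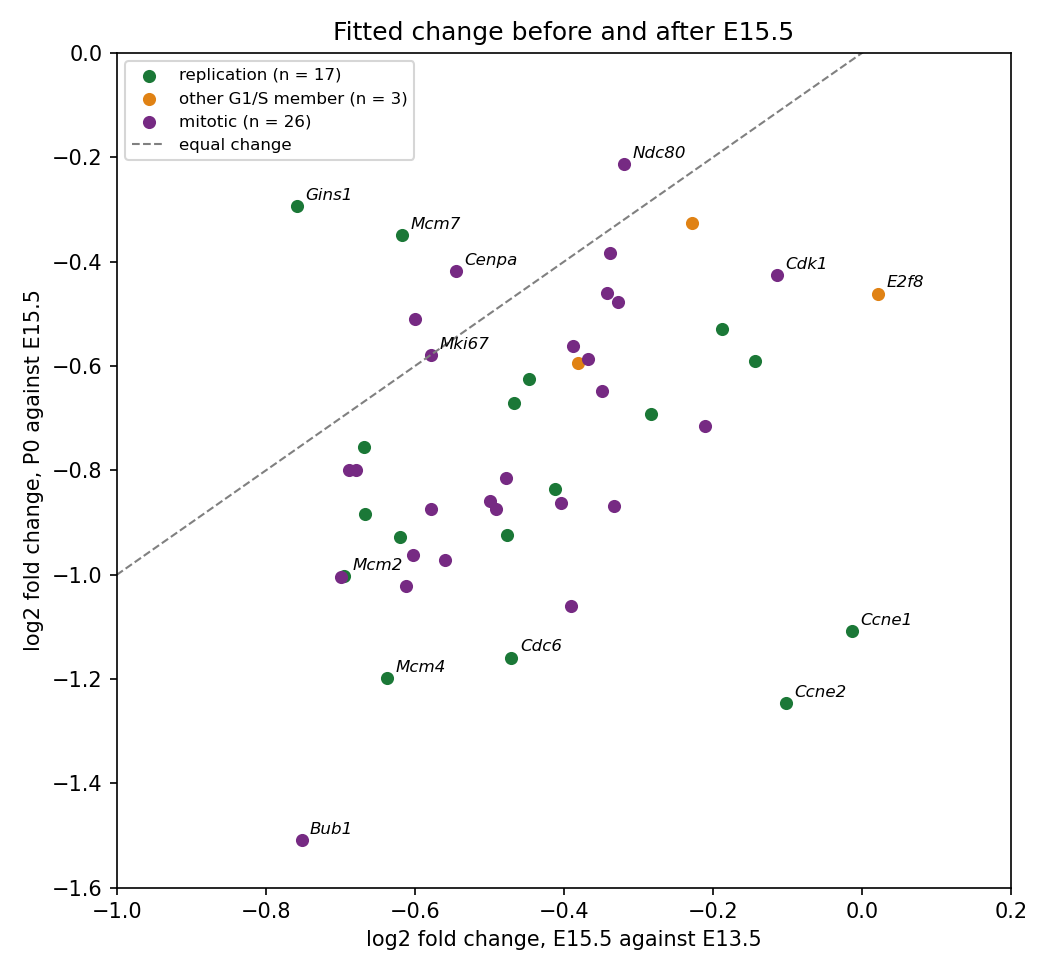
Each point is 1 of the 46 genes, placed by its fitted log2 fold change from E13.5 to E15.5 (x axis) and from E15.5 to P0 (y axis), and the dashed line marks equal change in both. Points under the line, 41 of 46, have the larger fitted fall after E15.5; Ccne1 and Ccne2 lie near 0 on the x axis and beyond -1 on the y axis, and both comparisons share the E15.5 libraries.

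Replication and mitotic genes were then compared within each library, by subtracting the mean log2 CPM of the 26 mitotic genes from that of the 17 replication genes. This is a description with no test, since the members were chosen with results known. The difference was -0.26 ± 0.037 (SD, n = 3 at each stage) for E13.5, -0.11 ± 0.011 for E14.5, -0.24 ± 0.065 for E15.5, -0.21 ± 0.061 for E16.5 and -0.27 ± 0.252 for P0. Both its sign and its change between stages depend on the summary: by the median over genes it was 0.27 for E13.5, 0.29 for E14.5 and 0.0122 for P0. By the mean, E14.5 stood 0.14 to 0.17 above the E13.5 mean in its 3 libraries, a shift that the median does not show, where the mitotic genes had dropped by 0.41 to 0.90 and the replication genes by 0.24 to 0.76. At P0 the 3 libraries were apart, at -0.02, -0.28 and -0.52, and their mean lay within 1 SD of the E13.5 mean, while the median over genes was lower at P0 than at E13.5.

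The mean of the mitotic genes and the difference between the groups were spread more widely at P0 than at other stages. The SD of the mitotic mean was 0.499 at P0 and 0.356 at E16.5, the next widest. That of the replication mean was 0.299 at both stages. In P0 replicate 3 the mitotic genes stood 0.86 above the mean of the other 2 libraries (median log2 difference, from 0.61 for the smallest to 1.14 for the largest of 26) and the replication genes 0.52 (from 0.01 to 1.05 for 17). Without that library the difference between the groups at P0 was -0.15, without replicate 1 it was -0.40, and without replicate 2 it was -0.27. Without P0 replicate 3, P0 against E13.5 called 45 members lower, where 5813 of 22814 tested genes were called lower.

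**Figure D5:**
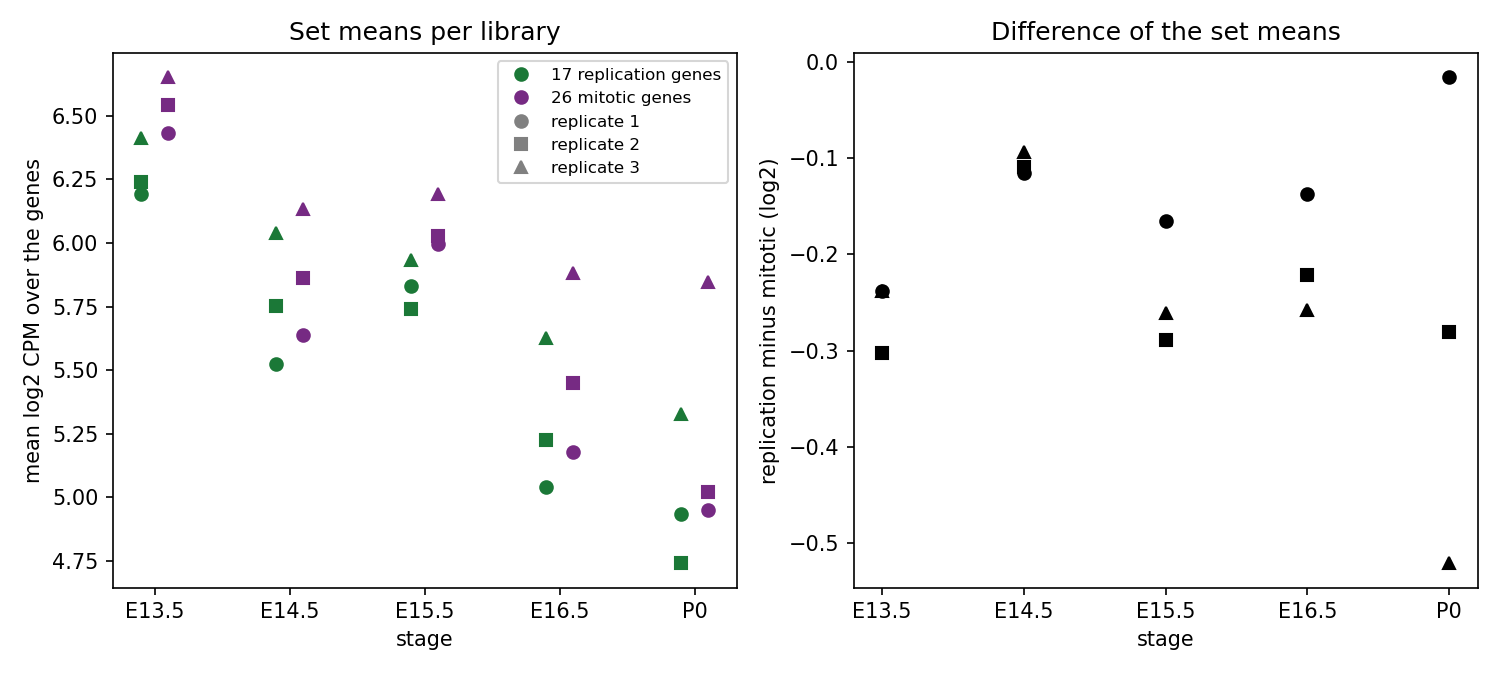
Left, the mean log2 CPM of the 17 replication genes (green) and of the 26 mitotic genes (purple) in each library by stage, with the replicate as the symbol; right, the first minus the second. The difference lies between -0.52 and -0.02 in all 15 libraries, with the 3 P0 libraries the farthest apart.

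Members were ordered alike within stages, and replicate 3 was the highest library for most of them at each stage. In E14.5 replicate 1 was the lowest and replicate 3 the highest of the 3 libraries for all 46 members, while 34.4% of tested genes were lowest and 36.8% highest in those libraries. In E16.5 replicate 3 was the highest for 46 members (28.9% of tested genes) and replicate 1 the lowest for 42 (41.2% of tested genes). In P0 replicate 3 was the highest for 43 members (35.1% of tested genes), at E13.5 for 36 (43.9%) and at E15.5 for 40 (35.1%).

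Marker sums differed with stage and with these libraries. The palate mesenchyme sum was highest in replicate 3 at every stage. In replicates 1, 2 and 3 it was 405, 543 and 623 CPM (E14.5), 219, 270 and 331 CPM (E16.5) and 238, 255 and 346 CPM (P0). Its lowest library was that of most members in E14.5 and E16.5. At P0 replicate 1 was the lowest for 24 members and replicate 2 for 22. At E13.5 the sum was lowest in replicate 2 but 31 members in replicate 1. At E15.5 the sum was lowest in replicate 1 but 29 members in replicate 2. Of the 8 markers 5 fell between E13.5 and P0 (26.8% of tested genes), with a median log2 fold change of -1.35. The 6 skeletal muscle markers (Myod1, Myog, Ckm, Acta1, Mylpf and Tnnt3) summed to 95.8 to 197 CPM (E13.5), 115 to 605 (E14.5), 967 to 2568 (E15.5), 8474 to 27662 (E16.5) and 4560 to 25776 (P0), and 4 of 6 rose between E13.5 and P0, where 29.8% of tested genes rose. Their sum was 27662, 11125 and 8474 CPM in E16.5 replicates 1, 2 and 3, and 21748, 25776 and 4560 CPM in those of P0. The sum of the 5 oral epithelium markers (Krt5, Krt14, Krt15, Epcam and Trp63) was highest in replicate 3 and lowest in replicate 1 at every stage. In replicates 1, 2 and 3 it was 883, 1134 and 2145 CPM in E16.5 and 868, 1811 and 2953 CPM in P0. At E13.5 it was 192 to 463 CPM, and 3 of the 5 markers rose to P0. In E14.5 the 6 neural markers (Tubb3, Stmn2, Elavl4, Neurod1, Sox2 and Nes) summed to 3359, 2458 and 1694 CPM in replicates 1, 2 and 3, and the 5 choroid plexus markers (Ttr, Kcne2, Kcnj13, Folr1 and Otx2) to 1342, 18.01 and 729 CPM. The neural sum was lowest in replicate 3 at every stage, though at E16.5 only at 1122 CPM against 1137 CPM in replicate 1. The 6 osteoblast markers (Runx2, Sp7, Alpl, Col1a1, Ibsp and Bglap) summed to 1285 to 1962 CPM at E13.5 and 16161 to 31077 CPM at P0, and 5 of 6 rose. No marker of these lists was at 0 in all libraries of a stage. The part of these cell types in the levels of the cell cycle genes was not tested.

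Most genes of the wider pathway fell too. Between E13.5 and P0, 31 of 34 further origin, helicase and polymerase genes fell by edgeR's test (26.8% of tested genes did), 30 of 32 further spindle, kinetochore and cytokinesis genes, 10 of 13 further E2F and MuvB factors, 5 of 7 genes of the G2 checkpoint, and 6 of 9 G1 cyclins, kinases and pocket proteins. The largest falls among these included Chek1, the checkpoint kinase that guards replication, with a log2 fold change of -2.16 (SE 0.32, edgeR adjusted p = 0.000152), and Cdc7, the kinase that fires origins, with a log2 fold change of -1.96 (SE 0.27, edgeR adjusted p = 8.22e-05). Ncapg, a condensin subunit, fell by 1.97 on the log2 scale, and Knl1, a kinetochore scaffold, fell by 1.96. Among the upstream genes E2f3 fell by 1.30, E2f7 fell by 1.25, the cyclin D gene Ccnd2 fell by 1.16 and Cdk2 fell by 1.14. Cdc25a, the phosphatase that activates CDKs, fell by 1.57, and Pola1, the catalytic subunit of the priming polymerase, fell by 1.60. The last 8 all passed at an edgeR adjusted p of at most 0.00132.

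In these lists 1 gene rose, Pttg1, which encodes securin, the inhibitor of separase. It was singled out after its values were seen. Pttg1 was at 13.5, 13.1 and 18.4 CPM at E13.5, 15.4, 15.7 and 17.2 at E15.5, and 27.1, 27.5 and 22.1 at P0. All P0 libraries lay above all E13.5 and E15.5 libraries, and P0 against E13.5 gave a log2 fold change of 0.77 (SE 0.20, edgeR adjusted p = 0.00588), while the separase gene Espl1 had a log2 fold change of -1.67 (SE 0.27, edgeR adjusted p = 0.000237).

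CDK inhibitors hold cells in G1. Of their 6 genes tested, 3 rose and 0 fell between E13.5 and P0 by edgeR's test, where 29.8% of tested genes rose. Cdkn1a, the gene of p21, was at 22.2, 23.5 and 36.6 CPM (E13.5), 41.8, 37.2 and 58.7 (E14.5), 153, 148 and 171 (E15.5), 262, 260.4 and 193 (E16.5) and 339, 437 and 175 (P0). Each of its E15.5 libraries lay above each E14.5 library. Replicate 3, the highest library for most members at each stage, was not in 1 place for Cdkn1a. It held the highest Cdkn1a value at E13.5, E14.5 and E15.5 and the lowest at E16.5 and P0. Cdkn1a rose between E14.5 and E15.5, with a log2 fold change of 1.77 (SE 0.31, edgeR adjusted p = 0.00248), and between E13.5 and P0 with a log2 fold change of 3.53 (SE 0.33, edgeR adjusted p = 7.41e-06). Cdkn2b, the gene of p15, was at 0.674, 0.113 and 0.461 CPM (E13.5), 0.296, 0.59 and 0.548 (E14.5), 1.05, 1.31 and 1.23 (E15.5), 3.02, 2.30 and 2.52 (E16.5) and 4.96, 2.90 and 3.27 (P0). All libraries from E15.5 on lay above all earlier ones, and P0 against E13.5 gave a log2 fold change of 3.15 (SE 0.49, edgeR adjusted p = 0.000209) at these low levels. Cdkn2c, the gene of p18, was at 8.10, 12.4 and 12.5 CPM at E13.5, 20.99, 21.4 and 24.04 at E15.5, and 26.6, 26.04 and 30.3 at P0, with a log2 fold change of 1.33 (SE 0.19, edgeR adjusted p = 9.99e-05) for P0 against E13.5. Cdkn1b (-0.44), Cdkn1c (-0.03) and Cdkn2d (0.48 on the log2 scale) did not pass, and Cdkn2a, at 0.0387 CPM on average at E13.5 and 0.24 at P0, was below the filter.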

How the data were processed

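Counts per gene were deposited by the authors for 15 libraries (3 at each of 5 stages, from the labels). Per the file headers, the authors counted fragments with featureCounts 2.0.1 on the reverse strand of the GENCODE M18 annotation, from trimmed and duplicate-marked alignments. The recorded command has no option that leaves out duplicates or that counts multi-mapping fragments. Per the submitters' processing notes, the tools also included cutadapt 3.4, FastQC 0.11.9, Bowtie2, HISAT2 2.2.1 and SAMtools 1.12, with build mm10. Symbols came from GENCODE M21 (54079 genes), in which 45 of the 46 members have the same position.

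In edgeR 4.0.16 under R 4.3.3, genes were filtered with filterByExpr (minimum count 10) and scaled by TMM, and a model with a term for each stage was fitted to all 15 libraries. The common biological coefficient of variation was 0.332. Quasi-likelihood F tests of 7 contrasts and of all stages were adjusted by Benjamini-Hochberg over 22151 genes, at a threshold of 0.05. The fit was tried on simulated counts in which few genes changed, and only at P0. That setting does not cover a contrast with as many calls as P0 against E13.5. Log2 CPM used a prior count of 2, and a floor of 3 counts covers counting error only. Levels between genes were compared per kilobase of the table's gene length.

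Libraries of a stage differed far beyond sampling noise (chi-square per degree of freedom 32.6 to 246). Alternatives were DESeq2 1.42.0, its size factors, upper-quartile scaling, other filters, thinning to 21.5 M counts, fits to only the stages compared, a replicate block, and leaving out each library. For the levels, they were a prior count of 0.5, medians, and other members. Motifs were searched in RefSeq promoter windows (GRCm38.p6).

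The members, gene lists and tests were chosen with earlier results of these data known. All members could be named. A further oral epithelium marker is not reported here. Values per library were given for 20 members listed by name, for the 2 replication and 2 mitotic genes with the largest and with the smallest fall, and of each further list the 2 genes with the largest change that passed were named.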

Additional observations from a re-analysis of the deposited data

How the results depend on the processing

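Between E13.5 and P0 the number of members that fell stayed between 38 and 45 when libraries were left out in turn, 40 to 45 under the other alternatives, and 42 became 34 to 46 for the test over all stages. Over all tested genes the number that fell between E13.5 and P0 was 5943 in the main fit. It was 5119 to 5813 when libraries were left out and 4446 to 6165 under the other alternatives. The counts of smaller contrasts moved. For E13.5 to E14.5 (0) DESeq2 gave 8, and leaving out libraries gave 0 each time. For E15.5 to E16.5 (0) DESeq2 gave 1, and leaving out libraries gave 0 to 3. For E13.5 to E15.5 (7), upper-quartile scaling gave 3, no filter 2, a mean of at least 1 CPM 3, thinning 2, only the stages compared 29, and leaving out libraries 0 to 3. All tested genes called lower in these fits numbered 1383, 1014, 1481, 1142, 2848 and 769 to 1865 in turn, from 2033 in the main fit. For E15.5 to P0 (28), only the stages compared gave 10, and leaving out libraries 10 to 41. All tested genes called lower numbered 741 and 1276 to 2917 in these fits, from 2386 in the main fit. The remaining steps stayed at 0 members lower in all alternatives. The cause of these moves was not tested, and some of these fits hold fewer libraries.

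Over all tested genes the replicate numbers gave no clear pairing of the libraries. Of 30 pairs with the same number in different stages, 9 correlated above 0.1, the highest at 0.55. Of 15 libraries, 7 correlated best with their own number. A replicate effect on the members alone was not tested. With a replicate block, 2 members passed for E13.5 to E14.5, 8 for E15.5 to E16.5 and 24 for E13.5 to E15.5. Of 22151 tested genes, 19, 166 and 2166 were called lower in turn. In the same fit 41 members passed for E15.5 to P0 and 45 for E13.5 to P0, where 2561 and 6060 tested genes were called lower. Over all stages 46 members passed with the block, and no number over all tested genes is given for that test.

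The replication minus mitotic difference changed sign with the median over genes, to 0.27, 0.29, 0.26, 0.17 and 0.0122 from E13.5 to P0, and at E14.5 per kilobase, to 0.0589. Per kilobase it was -0.0946 at E13.5, -0.0728 at E15.5 and -0.0402 at E16.5. With Cdc45, E2f1 and E2f8 among the replication genes it was -0.45, -0.30, -0.39 and -0.33 from E13.5 to E16.5. Of 3122 other values under alternatives, 2853 kept their call or a similar count, 171 lost the call, 54 gained it and 44 counts moved. A change of sign was looked for only where the main or the alternative fit called the gene, and 0 were found. Depth limits P0 replicate 3 most, at 21.5 M counts.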
